A study of Mus musculus with 14 samples.

Results

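Crystallins are the genes whose products fill the lens. The members described here were 10 mouse genes chosen by name: the alpha crystallins Cryaa and Cryab, the beta crystallins Cryba1, Cryba2, Cryba4, Crybb1, Crybb2 and Crybb3, the gamma-type Crygs, and Crym. The table of retinas taken on the day of birth (P0) held 8 of the 10 among 19337 genes. The table of retinas taken at postnatal day 22 (P22) held 1 of the 10, Crym, among 11613 genes. Crybb2 and Crygs had no row in these tables and were not analysed here. The 7 alpha and beta members measured at P0 are called the lens members below.

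The study sequenced RNA from whole mouse retina in animals carrying 1 or 2 null copies of Peanut, a long noncoding RNA gene. The groups were Peanut +/- heterozygotes (het, 4 libraries at P0 and 2 at P22) and Peanut -/- knockouts (KO, 4 libraries at each age), so every group lacked at least 1 functional copy and the heterozygotes were the only controls; wild-type retina was not analysed here. The labels give no strain, sex or design of the null allele, and do not say whether numbered replicates came from separate animals, so p-values measure the spread between these samples, which may be technical. P0 libraries were made by enzymatic ribosomal RNA removal and random priming and P22 libraries with a SMARTer stranded total RNA kit, so levels were not compared between ages.

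Alpha crystallins are small heat shock proteins: Cryaa is largely a lens gene, whereas Cryab is also induced by stress in glia, muscle and other tissues. Beta and gamma crystallins are related structural proteins built from Greek key folds, and they are packed into lens fibre cells at very high concentration. The lens lies against the retina in the small newborn eye, and low crystallin expression has also been described within the retina, among others in ganglion cells, glia and photoreceptors. Crym (mu-crystallin) shares the name for historical reasons only. It is a cytosolic protein that binds thyroid hormone and acts as a ketimine reductase, and it was named after its recruitment as a lens protein in some marsupials.

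Library totals were 15028865 to 19833083 reads at P0. At P22 they ran from 1819688 reads in het replicate 1 to 22813199 in het replicate 2, with 11044462 to 17990507 in the KO libraries. At P0, 3 reads, the limit that a count of 0 allows, corresponded to 0.151 to 0.200 CPM (reads of a gene scaled to a common library total), and at P22 to 0.132 to 1.65 CPM; this covers counting error only. The retina identity of the P0 libraries was checked with 6 defining genes (Crx, Otx2, Rax, Six6, Pax6, Rlbp1), which were all measured and summed to 1954 to 2200 CPM. No entry in either table is named Peanut, so the targeted transcript was not checked by name. The single gene called at P0 was Gm11454, with a log2 fold change of -7.62 (adjusted p = 0.0180, edgeR quasi-likelihood test). On the first principal component of the P0 libraries, which held 35.9% of the variance, the score of KO replicate 3 was -27.6 and that of het replicate 4 was -29.4. The other het libraries scored -12.8 to -4.15, whereas the other KO libraries scored 22.7 to 29.9.

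The lens members lie on 5 chromosomes. In GRCm38 coordinates, Cryaa lies at chr17:31677807-31681733 and Cryab at chr9:50751325-50756636, both on the plus strand. Cryba1 lies at chr11:77718615-77725283 and Cryba2 at chr1:74889934-74893143, both on the minus strand. Cryba4 (chr5:112246493-112252518, minus strand) and Crybb1 (chr5:112255815-112269585, plus strand) point away from each other across 3297 bases, and Crybb3 follows at chr5:113075839-113081584 on the minus strand. Crym lies at chr7:120186380-120202111 on the minus strand. All 8 are annotated as protein coding. The span of Cryab shares 1030 bases with the opposite-strand gene Hspb2, and since the use of strand in counting is not given in the sources used here, Cryab reads in that stretch are uncertain.

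RefSeq promoter sequence (GRCm38.p6) was matched for 6 of the 8 measured members. It was searched over the 250 bases before the start on both strands for TGCTGAC, the core of the site bound by MAF factors, which are lens regulators, and for TATAAA, the TATA box; the words do not overlap each other. TGCTGAC occurred in 4 of the 6, Cryaa, Cryba1, Cryba4 and Crybb1, and in 3.81% of 32851 promoters of the same length. TATAAA occurred in 2 of the 6, Cryba1 and Crybb1, and in 12.4% of all promoters. Of the promoters below, Cryaa belongs to the member with the largest P0 fold change, Cryba1 and Crybb1 to the pair with the highest rank correlation, and Cryba2 to the member that varied most between libraries. Matches are in capitals and each sequence runs 5′ to 3′ on the gene's strand; a match is a description of letters and not a binding site.
Cryaa (chr17:31677681-31677930, plus strand; TGCTGAC begins 108 bases before the start; the GENCODE gene begins inside this window): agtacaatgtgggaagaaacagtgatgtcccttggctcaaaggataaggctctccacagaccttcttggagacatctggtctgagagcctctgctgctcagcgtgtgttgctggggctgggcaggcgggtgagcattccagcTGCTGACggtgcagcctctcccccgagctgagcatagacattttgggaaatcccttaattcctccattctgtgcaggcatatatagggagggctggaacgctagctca
Cryba1 (chr11:77725294-77725543, minus strand; TGCTGAC at 57 and TATAAA at 23 bases before the start): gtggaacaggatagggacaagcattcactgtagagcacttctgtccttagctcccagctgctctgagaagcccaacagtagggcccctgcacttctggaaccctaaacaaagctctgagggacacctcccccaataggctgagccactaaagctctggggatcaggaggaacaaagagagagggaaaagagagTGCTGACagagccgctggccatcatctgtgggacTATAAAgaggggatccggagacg
Crybb1 (chr5:112255570-112255819, plus strand; TGCTGAC at 84 and TATAAA at 30 bases before the start): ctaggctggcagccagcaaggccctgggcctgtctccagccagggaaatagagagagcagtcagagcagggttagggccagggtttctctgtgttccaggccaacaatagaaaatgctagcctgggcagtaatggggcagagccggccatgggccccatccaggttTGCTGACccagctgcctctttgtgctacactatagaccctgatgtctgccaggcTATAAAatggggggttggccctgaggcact
Cryba2 (chr1:74893144-74893393, minus strand; neither word): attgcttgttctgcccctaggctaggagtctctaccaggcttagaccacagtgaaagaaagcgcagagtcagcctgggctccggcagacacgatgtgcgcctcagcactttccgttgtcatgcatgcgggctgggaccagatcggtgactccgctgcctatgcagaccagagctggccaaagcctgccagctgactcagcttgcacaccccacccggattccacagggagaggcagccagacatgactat

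At P0 the lens members were expressed at low level, and one KO library, replicate 2, held more of each than any other library. For Cryaa, the alpha crystallin that keeps lens proteins soluble, the het libraries 1 to 4 gave 5.95, 12.1, 8.02 and 11.1 CPM and the KO libraries 1 to 4 gave 12.9, 48.6, 10.6 and 10.2 CPM. KO replicate 2 held 942 Cryaa reads, where the other 7 libraries held 91 to 205. KO replicate 1 lay slightly above the highest het library, KO replicates 3 and 4 lay inside the het range, and the groups overlapped. The means were 9.30 ± 2.84 CPM in het (SD, n = 4) and 20.6 ± 18.7 CPM in KO (SD, n = 4). The log2 fold change of KO over het was 1.13 (SE 0.44, adjusted p = 0.526, edgeR quasi-likelihood test), which did not pass the threshold.

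Cryab, the stress-induced alpha crystallin, was measured at 1.11, 2.33, 2.17 and 3.27 CPM in het and 4.38, 8.10, 1.60 and 2.79 CPM in KO. Here KO replicate 1 as well as replicate 2 stood above all het libraries, and the other KO libraries lay inside the het range. Its log2 fold change was 0.89 (SE 0.41, adjusted p = 0.526, edgeR quasi-likelihood test).

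**Figure D1:**
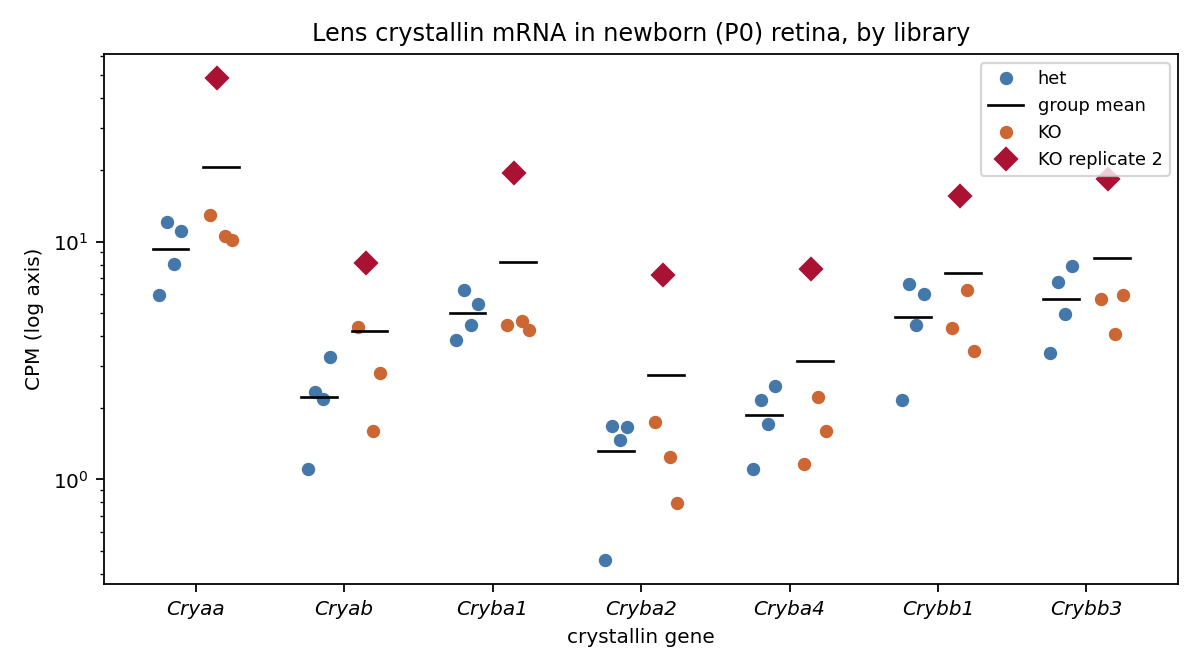
Level of each lens member in the 8 P0 libraries, in CPM on a log axis, with het libraries at the left and KO libraries at the right of each gene, the group mean as a line and KO replicate 2 as a diamond. KO replicate 2 is the highest point for all 7 members, at 48.6 CPM for Cryaa and 19.5 CPM for Cryba1.

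The acidic beta crystallins, structural partners in beta crystallin oligomers, showed the same single high library. Cryba1 was at 3.85, 6.28, 4.44 and 5.45 CPM in het and 4.44, 19.5, 4.65 and 4.26 CPM in KO. Cryba2 was at 0.457, 1.67, 1.46 and 1.66 CPM in het and 1.74, 7.22, 1.24 and 0.798 CPM in KO. Cryba4 was at 1.11, 2.15, 1.71 and 2.47 CPM in het and 1.16, 7.63, 2.22 and 1.60 CPM in KO. For Cryba1 and Cryba4 the other 3 KO libraries all lay within the range of the 4 het libraries; for Cryba2, KO replicate 1 exceeded the highest het library by a small margin. The log2 fold changes were 0.71 for Cryba1 (SE 0.43), 1.06 for Cryba2 (SE 0.58) and 0.77 for Cryba4 (SE 0.49), with adjusted p-values of 0.533, 0.526 and 0.544 (edgeR quasi-likelihood test).

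The basic beta crystallins followed. Crybb1, whose product forms mixed oligomers with acidic members, was at 2.16, 6.63, 4.44 and 6.02 CPM in het and 4.31, 15.5, 6.25 and 3.46 CPM in KO. Crybb3 was at 3.40, 6.75, 4.94 and 7.91 CPM in het and 5.73, 18.4, 4.08 and 5.99 CPM in KO. In both, KO replicates 1, 3 and 4 lay within the het range. The log2 fold changes were 0.61 (SE 0.42) and 0.55 (SE 0.40), with adjusted p-values of 0.561 and 0.571 (edgeR quasi-likelihood test).

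None of the 8 measured members was called between the P0 genotypes by the edgeR quasi-likelihood test (0 of 8), where 0.00517% of the 19337 genes tested were called. DESeq2, which called 0.00517% of all genes, and limma-voom with sample weights, which called 11.1%, also called 0 of the 8. At an unadjusted p under 0.05 in the quasi-likelihood test there were 2 of the 8 members, Cryaa and Cryab, and 1579 of the 19337 genes. Without KO replicate 2 there were 0 members and 639 of 19335 genes. The median log2 fold change of the 8 members was 0.74, and that of all genes 0.03. The groups overlapped for all 8 members, and 2.32% of all P0 genes had groups that did not overlap. The exact permutation test over the 8 samples, two-sided, gave p = 0.2 for Cryaa, 0.229 for Cryab and 0.571 to 0.771 for the beta members; the smallest p it can give is 0.0286.

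KO replicate 2 decided the direction of most of these differences. With that library left out, the log2 fold change was 0.22 for Cryaa (SE 0.20) and 0.31 for Cryab (SE 0.35). For Cryba1, Cryba2, Cryba4, Crybb1 and Crybb3 it was -0.21, -0.12, -0.19, -0.07 and -0.19, so that the sign of all 5 turned. Adjusted p-values of the 7 lens members without it were 0.878 to 0.972 (edgeR quasi-likelihood test; 0.00517% of all genes called). Summed over the 7 lens members, the het libraries held 30.3 ± 9.60 CPM (SD, n = 4) and the KO libraries 54.8 ± 46.8 CPM (SD, n = 4), or 31.4 ± 2.88 CPM (SD, n = 3) without KO replicate 2. Leaving out KO replicate 3 had the opposite effect: Cryaa (log2 fold change 1.30, adjusted p = 0.0432) and Cryab (1.12, adjusted p = 0.0384) were then called higher in KO (edgeR quasi-likelihood test). In that fit 2839 of 19337 genes were called, 399 of them higher and 2440 lower in KO.

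**Figure D2:**
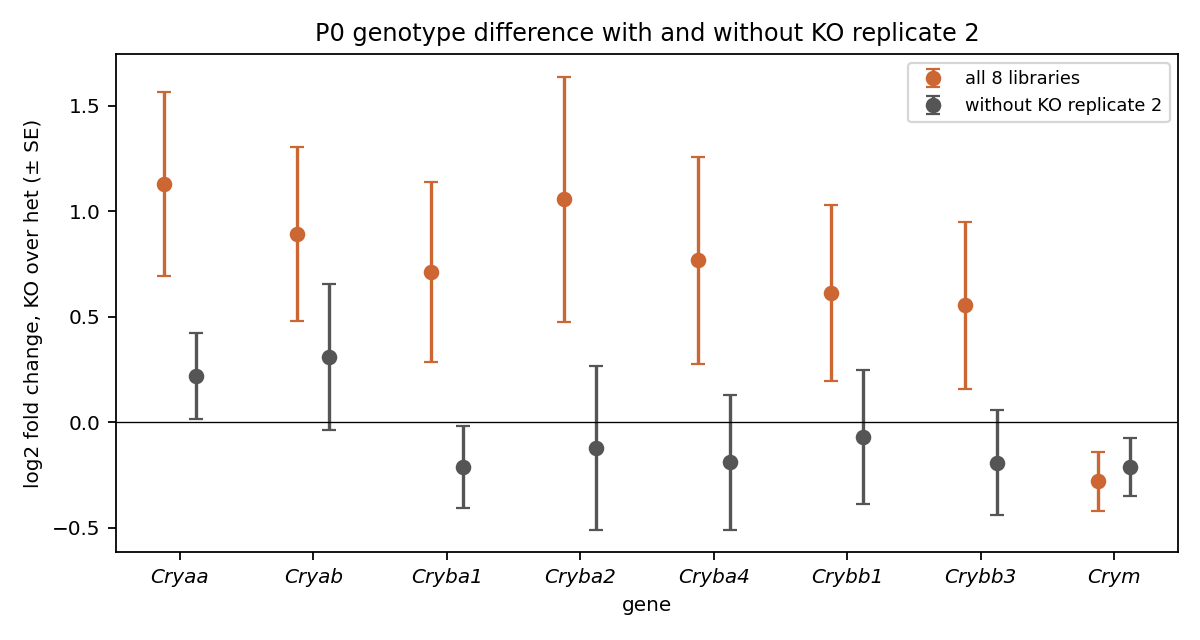
Log2 fold change of KO over het for each measured member at P0, with its standard error, from all 8 libraries and with KO replicate 2 left out. Without that library the estimates of the 5 beta members move from between 0.55 and 1.06 to between -0.21 and -0.07, and Cryaa moves from 1.13 to 0.22.

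The authors' deposited table for P0 lists 34 of 19337 genes at a false discovery rate under 0.05 (0.176%), 20 of them higher in KO, and 4 of those 20 are members. In the authors' deposited table, Cryaa has a log2 fold change of 1.15 (false discovery rate 8.50e-09), Cryba2 1.09 (0.00623), Cryab 0.92 (0.00974) and Cryba1 0.73 (0.0287). Cryba4, Crybb1 and Crybb3 are not called in the authors' deposited table, with false discovery rates of 0.0972, 0.107 and 0.136. An edgeR exact test with 1 dispersion common to all genes gave those p-values again, to within 1.42e-14 log10 units. The same test run without KO replicate 2 called 17 genes (0.0879%) and 0 members; Cryaa then had a log2 fold change of 0.27 and Cryba1 one of -0.17. A single common dispersion gives every gene the same allowance for scatter between replicates, and the quasi-likelihood test estimates it gene by gene.

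The lens members shared their highest and their lowest library. KO replicate 2 was the highest library for 7 of 7 lens members, whereas 20.2% of all P0 genes were highest there. Het replicate 1 was the lowest library for 7 of 7, whereas 9.94% of all genes were lowest there. The level in KO replicate 2 was 4.94 times the median of the other 7 libraries for Cryba2, 4.59 times for Cryaa, 4.45 times for Cryba4, 4.39 times for Cryba1, 3.49 times for Crybb1, 3.47 times for Cryab and 3.20 times for Crybb3. The corresponding median over all genes was 1.03. Of 19337 genes, 112 (0.579%) reached 2 times and 19 reached 3 times, and 12 of those 19 were crystallins: the 7 lens members and the gamma crystallins Crygb, Crygc, Crygd, Cryge and Crygf.

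The gamma crystallins, which are fibre cell proteins of the lens and no members here, gave the same single high library. Their sum over those 5 genes was 5.62, 11.9, 8.47 and 12.0 CPM in het and 4.77, 36.1, 11.4 and 4.66 CPM in KO. Crygd had 5.29 times, Crygc 5.25 times and Crygb 5.03 times the median of the other 7 libraries in KO replicate 2. KO replicates 1 and 4 were the lowest libraries for this sum, in contrast to the lens members, for which het replicate 1 was the lowest.

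Markers of the tissues next to the retina were measured beside these values. Of 13 lens fibre and lens epithelium genes, 5 had a row at P0, and KO replicate 2 was the highest library for 2 of the 5. These were the beaded filament genes, Bfsp1 with 4.90 CPM against 1.96 to 2.87 CPM in the other 7 libraries and Bfsp2 with 2.73 against 0.929 to 1.80 CPM. Mip, the lens fibre water channel, was at 3.40 CPM there and at 1.76 to 3.59 CPM elsewhere. Birc7 was at 5.21 CPM there and at 4.38 to 7.41 CPM elsewhere, and Tdrd7 at 37.4 CPM there and at 26.2 to 38.4 CPM elsewhere. The 5 genes summed to 53.6 CPM in KO replicate 2 and to 35.8 to 50.5 CPM in the others, and Tdrd7, which the retina also expresses at P22, made up most of that sum in each library. Lim2, Gja3, Grifin, Lctl, Lgsn, Dnase2b, Hsf4 and Foxe3 had no row.

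Of 14 pigment epithelium genes, 10 had a row, and they summed to 61.5, 116, 108 and 109 CPM in het and 149, 150.0, 75.9 and 94.4 CPM in KO. KO replicate 2 was highest for 5 of the 10 and het replicate 1 lowest for 6 of the 10, and the median ratio of KO replicate 2 to the other libraries was 1.45. The pigment sum shared its highest and its lowest library with the lens member sum, but KO replicate 1 nearly equalled KO replicate 2 in the pigment sum, whereas its lens member sum was 34.6 CPM against 124.8 CPM. Among Mueller glia and astrocyte genes KO replicate 2 was highest for 0 of 14, among vascular genes for 0 of 8, among rod genes for 1 of 15 and among heat shock and chaperone genes for 5 of 15. Krt15, the only one of 5 cornea and conjunctiva genes with a row, was not highest there. The part of lens or pigment epithelium tissue in the crystallin levels was not tested, and in bulk samples more cells of a type and more RNA per cell cannot be told apart.

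**Figure D3:**
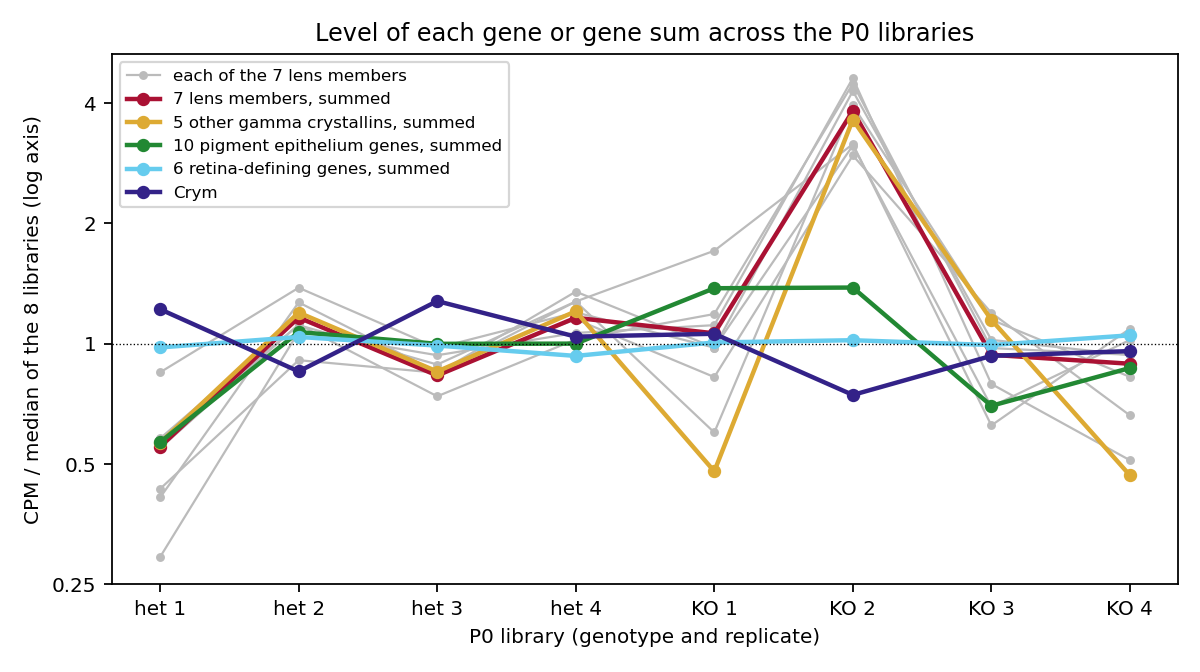
Level of each lens member, of Crym and of the summed lens member, gamma crystallin, pigment epithelium and retina-defining genes in each P0 library, divided by the median of the 8 libraries, on a log axis. The lens members and the gamma crystallins share their peak in KO replicate 2, at 124.8 and 36.1 CPM in sum, where the pigment epithelium sum of 150.0 CPM is close to that of KO replicate 1 and the retina-defining sum lies at 2139 CPM.

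Correlation between members was measured over the 8 P0 libraries on log2(CPM + 1), as Pearson's r and Spearman's rho with exact permutation p-values adjusted over the 28 pairs. All 21 pairs of lens members had a positive r, from 0.72 to 0.96 with a median of 0.91. Of the 21, 20 passed 0.05 after adjustment by r and 2 by rho, whose values ran from 0.38 to 0.95 with a median of 0.74. Pairs of other genes were not counted, so how often they pass is not known. The strongest pair by rank was Cryba1 with Crybb1 (r = 0.90, adjusted permutation p = 0.00278; rho = 0.95, adjusted permutation p = 0.0313; r = 0.87 without the 2 libraries farthest from the median of Cryba1). The strongest by r was Cryaa with Cryba2 (r = 0.96, rho = 0.93). Without KO replicate 2 all 21 r values were still positive, from 0.05 to 0.85 with a median of 0.70, and 0 passed after adjustment. Without the 2 libraries farthest from the median of the first member of each pair, 17 of 21 were positive, with a median of 0.38 and 0 passing. Leaving out the farthest libraries narrows the range and so lowers r by itself. These values therefore do not show what the relation rests on.

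Crym went the other way. Its 7 pairs with the lens members had r from -0.82 to -0.61, 5 of them passing after adjustment by r and 0 by rho. Without KO replicate 2 they ran from -0.73 to -0.21 and 0 passed. All these values share the library totals and the relative RNA content of the same 8 libraries, and pairs of other genes were not counted. Computed on deviations from the genotype means, 25 of the 28 pairs passed, as many as without that step.

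**Figure D4:**
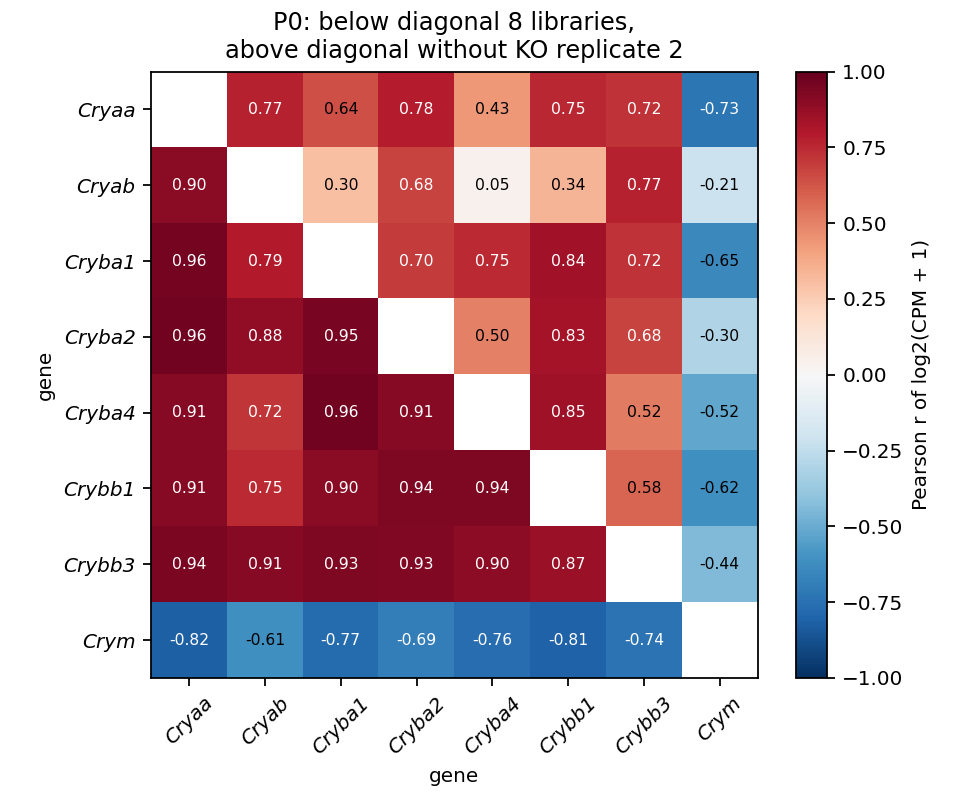
Pearson correlation of log2(CPM + 1) between the 8 measured members over the P0 libraries, below the diagonal with all 8 libraries and above it without KO replicate 2. The 21 pairs of lens members run from 0.72 to 0.96 with all libraries and from 0.05 to 0.85 without that one, and every pair with Crym is negative in both.

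The make-up of the lens member reads was compared by the share of each member among them. Cryaa took 29.3% to 33.0% of these reads in the het libraries and 34.6% to 38.9% in the KO libraries, and it was the only one of the 7 whose shares did not overlap between genotypes. This gene was singled out after its values were seen, and no test was made. The shares divide the same reads, so they depend on each other. In CPM, 2.32% of all P0 genes had groups that did not overlap. The 95% Wilson intervals, which cover counting error only, were 27.7% to 38.7% in het replicate 1 and 37.0% to 40.9% in KO replicate 2. Cryab took 12.6% (10.1% to 15.7%) in KO replicate 1 and 6.48% (5.57% to 7.54%) in KO replicate 2, so the library richest in lens member reads did not have the highest Cryab share.

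Per kilobase of exon, the median level over the 8 P0 libraries placed Crym first at 33.6 CPM per kb. Crybb1 followed at 5.31, Cryaa at 5.23, Cryba1 at 2.85, Crybb3 at 2.51, Cryba4 at 2.31, Cryab at 1.73 and Cryba2 at 1.31 CPM per kb. Crym exceeded Crybb1, Cryaa exceeded Cryba1, and Cryba1 exceeded Crybb3, in 8 of 8 libraries each. Crybb1 exceeded Cryaa in 4 of 8, so these neighbours had no fixed order, and Crybb3 exceeded Cryba4 in 6 of 8.

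The genes outside the member list with the profile most like the mean of the lens members at P0 were, over 8 libraries, A730020E08Rik (r = 0.94), Akirin1 (0.94), Ano3 (0.93), Btaf1 (0.93) and the gamma crystallin Crygd (0.92). Without KO replicate 2 the r values were 0.81, 0.65, 0.64, 0.60 and 0.56, in that order. They are a description and carry no p-value.

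Crym, the thyroid hormone binding protein, was the only member measured at both ages. At P0 it was at 139, 97.0, 145 and 119 CPM in het and 120.5, 84.7, 106 and 109 CPM in KO. KO replicate 2 held the lowest level, and the groups overlapped. The het libraries averaged 125 ± 21.9 CPM (SD, n = 4) and the KO libraries 105 ± 14.9 CPM (SD, n = 4), and the log2 fold change of -0.28 (SE 0.14, adjusted p = 0.526, edgeR quasi-likelihood test) did not pass. In the authors' deposited table it is -0.25 with a false discovery rate of 0.525.

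At P22 Crym rose in the knockout. It was at 8.79 and 9.86 CPM in the 2 het libraries, from 16 and 225 reads, and at 18.2, 18.7, 16.2 and 17.6 CPM in the 4 KO libraries, from 179 to 337 reads. Each KO library lay above both het libraries, with means of 9.33 ± 0.757 CPM (SD, n = 2) and 17.7 ± 1.08 CPM (SD, n = 4); 43.4% of P22 genes had groups that did not overlap. The log2 fold change was 0.75 (SE 0.18, adjusted p = 0.0257, edgeR quasi-likelihood test), where 11.2% of 11613 genes were called and 4.74% were called higher in KO. The median over all P22 genes was 0.04. The exact permutation test, two-sided, gave p = 0.0667, the smallest that 2 against 4 samples allow. The authors' deposited table gives a log2 fold change of 0.88 with a false discovery rate of 0.00297, in a table where 18.2% of genes are called.

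The P22 call of Crym depended on single libraries, as did the number of genes called in all. By the edgeR quasi-likelihood test the Crym call was lost without KO replicate 1 (log2 fold change 0.75, adjusted p = 0.0786) or KO replicate 2 (0.71, adjusted p = 0.0676). Of 11613 genes, 344 and 590 were called in those fits, where 1295 were called with all libraries. The Crym call was also lost without het replicate 1 (0.71) or het replicate 2 (0.87), which leaves a single het library. Het replicate 1 was the shallowest library and stood apart on the first principal component of the P22 libraries (56.7% of the variance), with a score of -50.7 against -9.79 for het replicate 2 and 7.29 to 20.4 for the KO libraries. Its 16 reads gave an exact Poisson 95% interval of 5.03 to 14.3 CPM. The lowest KO library, replicate 3 with 179 reads, had an interval of 13.9 to 18.8 CPM, and the intervals, which cover counting error only, overlapped. With library totals as the only scaling, the median of all P22 genes moved from 0.04 to 0.17 and the value for Crym from 0.75 to 0.89.

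The genotype difference of Crym differed between the ages. In 1 joint fit of both ages on the genes in both tables, whose scaling and dispersions differ from those of the separate fits above, the log2 fold change at P22 minus that at P0 was 0.98 (SE 0.23, adjusted p = 0.0263, edgeR interaction test), where 4.10% of the 11428 genes in both tables were called. The call was lost without P22 KO replicate 1 (0.98, adjusted p = 0.0531) or P22 KO replicate 2 (0.93, adjusted p = 0.0525, edgeR interaction test). Over all genes 195 and 293 were called in those fits, where 468 were called with all libraries. The Crym call was also lost without P22 het replicate 2 (1.12), which leaves a single het library at P22. It was kept without any one of the other libraries. Age and library kit coincide in this test, so a genotype effect that differs by age and one that differs by kit cannot be told apart.

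**Figure D5:**
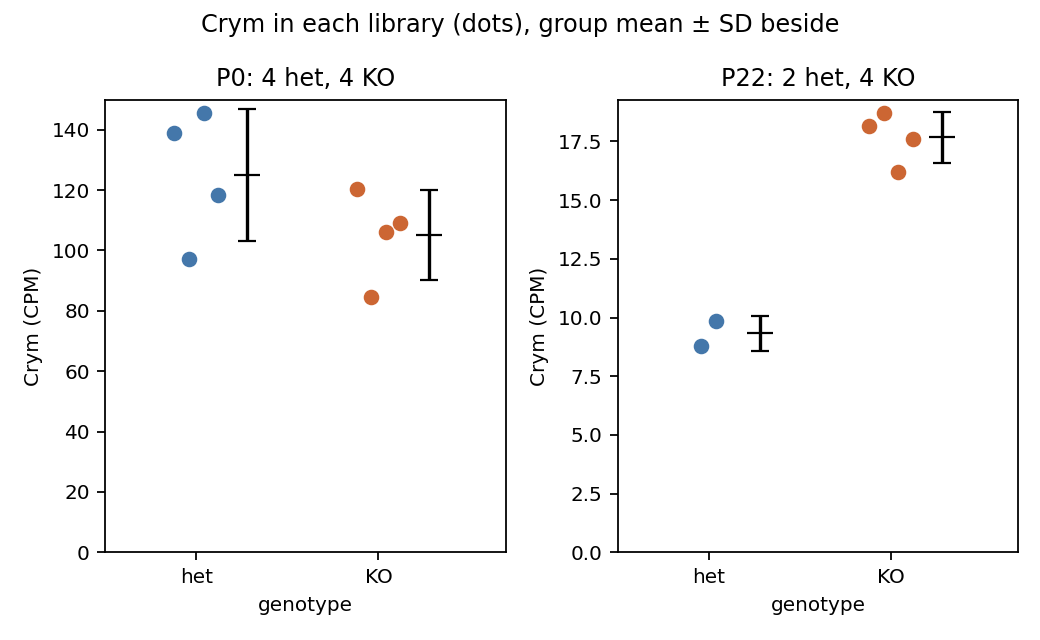
Level of Crym in each library at P0 and P22, in CPM on separate linear axes that start at 0, with the mean ± SD of each group beside its points. The P0 groups overlap, with het libraries at 97.0 to 145 CPM and KO libraries at 84.7 to 120.5 CPM, and at P22 the 4 KO libraries at 16.2 to 18.7 CPM lie above the 2 het libraries at 8.79 and 9.86 CPM.

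Genes that handle thyroid hormone, the ligand of Crym, were followed as a list. At P0, 10 of 11 were measured and 0 were called, with a median log2 fold change of -0.27; Thra, a thyroid hormone receptor, had -0.35 and Slc3a2, a subunit of an amino acid and hormone transporter, -0.29. At P22, 8 of 11 were measured, 0 were called higher and 3 were called lower: the coregulators Ncoa1 (-0.46) and Ncor1 (-0.48) and the transporter subunit Slc3a2 (-0.48). Of all P22 genes 6.41% were called lower and 4.74% higher, and the list median was -0.36. With library totals as the only scaling 0 of the 8 were called lower and 1 was called higher, where 3.57% of all genes were called lower and 9.24% higher, so the calls of these 3 depend on the scaling. Without het replicate 1, 1 of the 8 was called lower and 1 higher, where 3.66% of all genes were called lower and 4.99% higher.

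Heat shock and chaperone genes, the family to which the alpha crystallins belong by function, were called for 0 of 15 at P0, with a median log2 fold change of -0.02. At P22, 5 of 12 were called lower and 0 higher, with a median of -0.47, where 6.41% of all genes were called lower; with library totals only, 4 were called lower and 1 higher, where 3.57% and 9.24% of all genes were. The 5 were the small heat shock gene Hspb6 (-0.96), the inducible HSP70 genes Hspa1a (-0.97) and Hspa1b (-1.15), the HSP90 gene Hsp90aa1 (-0.61) and Hsph1 (-0.52), an HSP70 cofactor. Without het replicate 1, 2 of the 12 were called lower (3.66% of all genes) and 0 higher. Hspb6 was at 54.6 ± 1.89 CPM in het (SD, n = 2) and 31.1 ± 5.60 CPM in KO (SD, n = 4). Hspa1a and Hspa1b are near-identical copies, and how reads were split between them is uncertain. Cryab, a member of the same family, had no row at P22.

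Of the 10 listed regulators of crystallin genes, 8 were measured at each age. At P0 0 were called, with Sox2 at -0.25 and Hsf2 at 0.16, and at P22 1 was called, Prox1, a homeobox factor needed for lens fibre growth that also marks horizontal cells of the retina, which rose from 110 ± 27.8 CPM (SD, n = 2) to 210 ± 38.2 CPM (SD, n = 4; log2 fold change 0.76, adjusted p = 0.0269, edgeR quasi-likelihood test). A count of 1 of 8 is near the 11.2% of all P22 genes called, and without het replicate 1 it was 0 of 8. Among the other crystallin family genes, 0 of 11 at P0 and 0 of 3 at P22 were called. At P0 Crygd had 0.70 and Cryzl1, an enzyme relative, 0.17. Crygd averaged 2.32 CPM in the P0 het libraries and 3.72 CPM in the P0 KO libraries, or 1.84 CPM in KO without KO replicate 2. Of the lens genes, 0 of 5 were called at P0, where their log2 fold changes ran from 0.08 to 0.37, and at P22 the single gene measured, Tdrd7, an RNA granule protein, was called lower (-0.53, adjusted p = 0.0484), and not called with library totals only. Of the lists of other cell types, 0 genes were called at P0. At P22, 8 of 16 Mueller glia and astrocyte genes (median 0.60) and 3 of 5 vascular genes (0.52) were called higher, where 4.74% of all genes were. In the same libraries 15 of 15 rod genes (-0.95) and 1 of 7 pigment epithelium genes were called lower, where 6.41% of all genes were. Of the 6 retina-defining genes, 1 was called higher and 1 lower. Without het replicate 1, 8 of 16 glial and 1 of 5 vascular genes were called higher (4.99% of all genes), and 10 of 15 rod and 0 of 7 pigment epithelium genes lower (3.66%); of the retina-defining genes 1 was called higher and 0 lower. These glial and rod changes accompanied the higher Crym level in the same libraries, and their part in it was not tested.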

How the data were processed

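Gene tables of RNA-seq from 14 mouse retina libraries were used, 1 per age. Per the file headers, the deposited read counts are whole numbers per gene and library and are not normalized. The CPM values are the authors' scaling to library totals, and count divided by CPM gave each total; table rows sum to 97.7% to 99.7% of it. The authors' deposited table also gives log2 fold change, p-value and false discovery rate. Trim Galore, STAR, HTSeq, edgeR and the build mm10 are named in the submitters' processing notes without versions; the use of strand is not given in the sources used here.

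Samples were grouped by the genotype and age in the labels, and columns were matched to samples by the labels. CPM was computed from counts over those totals. Each age was fitted on its whole table in R 4.3.3 with edgeR 4.0.16 (filterByExpr, TMM, quasi-likelihood test) with Benjamini-Hochberg adjustment and a threshold of 0.05; the age difference was an interaction over genes in both tables. Fits were tested on simulated counts. Alternatives were DESeq2 1.42.0, limma 3.58.1 (voom with sample weights), other scaling and filters, a replicate block, left-out libraries and, added after seeing the data, an edgeR exact test with 1 common dispersion. Correlations used log2(CPM + 1) and scipy 1.17.1. No 2 libraries agreed within sampling noise. Positions and exon lengths are from GENCODE M21 (GRCm38).

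The members and gene lists were chosen with earlier results of these data known; a few marker genes were taken off the lens, rod and retina-defining lists afterwards, for a reason unrelated to their values, and are not reported here, so counts for these lists cover the genes that stayed. Named genes are all members and, from each list, the called genes (at most 5 by smallest p, or where none was called the 2 with the smallest p, given here in part), plus the 5 genes most like the lens member profile with a mean log2 CPM of at least 0; that search was not made at P22, where no lens member had a row.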

Additional observations from a re-analysis of the deposited data

Results flagged for a closer look

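KO replicate 2 stood apart from the other 3 KO libraries at P0 for 5 members and for the lens member sum. Its gap to the nearest KO library, as a fraction of the range of the 4 KO libraries, was 0.930 for Cryaa, 0.975 for Cryba1, 0.854 for Cryba2, 0.836 for Cryba4 and 0.866 for Crybb3, and 0.942 for the sum of the 7 lens members. Each exceeds Dixon's 95% critical value of 0.829 for 4 samples. Of 19 groups of 4 examined, 6 exceeded it, where chance gives about 1 in 20, and these 6 rest on the same library and are not independent of each other. The sum was 124.8 CPM in KO replicate 2 and 29.1 to 34.6 CPM in the other KO libraries.

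The genotype difference of Crym differed between the ages by a tested interaction, with a P22 minus P0 log2 difference of 0.98 (SE 0.23, adjusted p = 0.0263, edgeR) in the joint fit of both ages; the separate fits gave -0.28 at P0 and 0.75 at P22. The call was lost without P22 KO replicate 1 (adjusted p = 0.0531) or P22 KO replicate 2 (adjusted p = 0.0525, edgeR interaction test). Over all genes 195 and 293 were called in those fits, where 468 were called with all libraries. The Crym call was also lost without P22 het replicate 2, at a log2 difference of 1.12. Age and library kit coincide, so they cannot be told apart.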

How the results depend on the processing

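Over the left-out libraries the P0 log2 fold change ran from -0.21 to 0.92 for Cryba1, -0.12 to 1.31 for Cryba2, -0.19 to 1.04 for Cryba4, -0.069 to 0.81 for Crybb1 and -0.19 to 0.76 for Crybb3; in each the negative value was that without KO replicate 2. Without that library the exact test with 1 common dispersion gave -0.17, -0.080, -0.15, -0.033 and -0.14 for these 5 genes in the same order. The number of P0 members called was 0 in the quasi-likelihood test, 0 to 2 over the left-out libraries (2 without KO replicate 3) and 4 in the exact test with all libraries, or 0 without KO replicate 2. Without KO replicate 3, 399 of 19337 genes were called higher in KO and 2440 lower. The KO minus het difference in the summed lens members fell from 24.5 CPM to 1.18 CPM without that library. Of the 28 pair correlations, 25 passed, and 0 to 25 over the left-out libraries (0 without KO replicate 2, 1 without het replicate 1). At P22 the count of called members was 1, and 0 to 1 over the left-out libraries, as it was for the difference between ages. Adjusted p-values of Crym over all alternatives were 0.00297 to 0.112 at P22 and 0.00619 to 0.167 for the difference between ages, with no change of sign. The KO minus het difference of Crym at P22 was 8.36 CPM, and 7.22 CPM with TMM scaling. Over all P0 genes, limma-voom with sample weights called 2150 where the quasi-likelihood test called 1 and the exact test 34; at P22 it called 2675 against 1295, and for the difference between ages 1581 against 468, with 838 by DESeq2. With library totals only, 1073 P22 genes were called higher and 415 lower, where TMM gave 551 and 744. The causes were not tested.

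Same-numbered het and KO libraries did not deviate together (r of -0.28 to -0.08 at P0, and 0.19 and -0.09 at P22), so the numbers were not taken as pairs. With a replicate block 0 of 8 members were called at P0, and Crym at P22 had a log2 fold change of 0.83 with adjusted p = 0.0483, among 1760 genes called where the fit without the block called 1295. Depth limits Crym most in P22 het replicate 1, with 16 reads.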

Other observations

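Beside the 12 crystallins, 7 other genes were at 3 times or more the median of the other 7 P0 libraries in KO replicate 2: Xist, Gm5380, Gm43665, Fgfbp3, mt-Nd3, Gm49975 and Gm7846. Xist, the noncoding RNA of the inactive X chromosome, was at 4682 CPM in het replicate 1, 3637 in het replicate 4, 4747 in KO replicate 2 and 3717 in KO replicate 3, and at 1.55 to 8.98 CPM in the other 4 libraries. The library with the least lens member RNA, het replicate 1, and the one with the most, KO replicate 2, were both among those with high Xist. The labels give no sex, and a relation between Xist and the lens members was not tested.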
